A study of Mus musculus with 90 samples.

Results

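The genes of bile acid synthesis, transport and sterol export were followed across mouse liver RNA-seq libraries, together with the binding of the glucocorticoid receptor (GR) and FOXO1 and the DNase I hypersensitive sites (DHSs) around them. The 10 members were fixed by symbol among 24312 named genes in the expression table, and all 10 were found. They are the synthesis enzymes Cyp7a1, Cyp8b1, Cyp27a1 and Cyp7b1, the nuclear receptors Nr0b2 (SHP) and Nr1h4 (FXR), the bile salt transporters Slc10a1 (NTCP) and Abcb11 (BSEP), and the sterol export half-transporters Abcg5 and Abcg8. Of 90 samples in the series, 54 are RNA libraries, which form 16 groups in 5 experiments.

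In the night-restricted feeding (NRF) experiment, 10-week-old male C57BL/6N mice received chow only in the dark for 4 days, and livers were taken at zeitgeber time 10 (ZT10, before the dark phase), at ZT14 without food (ZT14-unfed) or at ZT14 after food was given at lights off (ZT14-fed), with 2 libraries each. In the injected experiment, mice of the same strain, age and feeding routine received vehicle (PBS), dexamethasone (dex, a synthetic GR agonist, 1 mg per kg), the insulin receptor antagonist S961, or both shortly before lights off. The 5 injected groups of 4 libraries were unfed vehicle, fed vehicle, fed dex, fed S961 and fed dex + S961, all taken at ZT14. In the L-GRKO experiment, adult GR fl/fl mice on the C57BL/6N background received an adeno-associated virus with Cre under the hepatocyte promoter Tbg (L-GRKO, 4 libraries) or the same kind of virus with GFP (GR fl/fl control, 4 libraries), and both groups were unfed at ZT14. In the L-IRSdKO experiment, mice with floxed Irs1 and Irs2 and Alb-Cre on the C57BL/6J background (L-IRSdKO, 4 libraries) were compared with floxed mice without Cre (IRS fl/fl control, 4 libraries), and both groups were fed and had received dex. The Tbg and albumin promoters act mainly in hepatocytes, so most other liver cells keep their alleles. In the obesity experiment, male mice had chow (lean) or a high-fat diet (obese) for 10 weeks and were then kept on NRF for 4 days before they were unfed or fed at ZT14, with 3 libraries per group. The knockout mice and their controls were kept on the NRF routine as well.

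Bile acids are made from cholesterol in hepatocytes. The classical pathway opens with Cyp7a1, its rate-limiting enzyme, and Cyp8b1 adds the hydroxyl group that directs the product to cholic acid. The alternative pathway runs through Cyp27a1, which oxidises the sterol side chain, and Cyp7b1, which hydroxylates the resulting oxysterols. Bile acids activate Nr1h4, which induces Nr0b2, a repressor of Cyp7a1 and Cyp8b1, and Abcb11, which pumps bile salts into the canaliculus. Slc10a1 takes bile salts up from portal blood, and Abcg5 and Abcg8 form a dimer that secretes cholesterol and plant sterols into bile.

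All 10 members were above 0.5 RPKM (reads scaled by transcript length and library size) on average in every experiment, so each entered every test. RPKM divides by transcript length, so levels can be compared between genes. Averaged over the 54 libraries, the order of levels was Slc10a1 at 324 RPKM, Cyp27a1 at 245, Cyp8b1 at 185, Cyp7b1 at 145, Cyp7a1 at 77.3, Abcb11 at 68.5, Nr1h4 at 59.6, Abcg5 at 43.7, Abcg8 at 28.7 and Nr0b2 at 17.8. The order was not the same in every group: Cyp27a1 stood above Slc10a1 in ZT14-unfed livers (212 against 160 RPKM) and in IRS fl/fl controls (282 against 206 RPKM). Neighbours in the order overlapped in range over the libraries. The synthesis enzymes Cyp7b1 (28.2 to 356 RPKM) and Cyp7a1 (12.1 to 179 RPKM) spanned wide ranges, whereas Cyp27a1 ran from 142 to 343 RPKM and Slc10a1 from 153 to 524 RPKM.

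**Figure D1:**
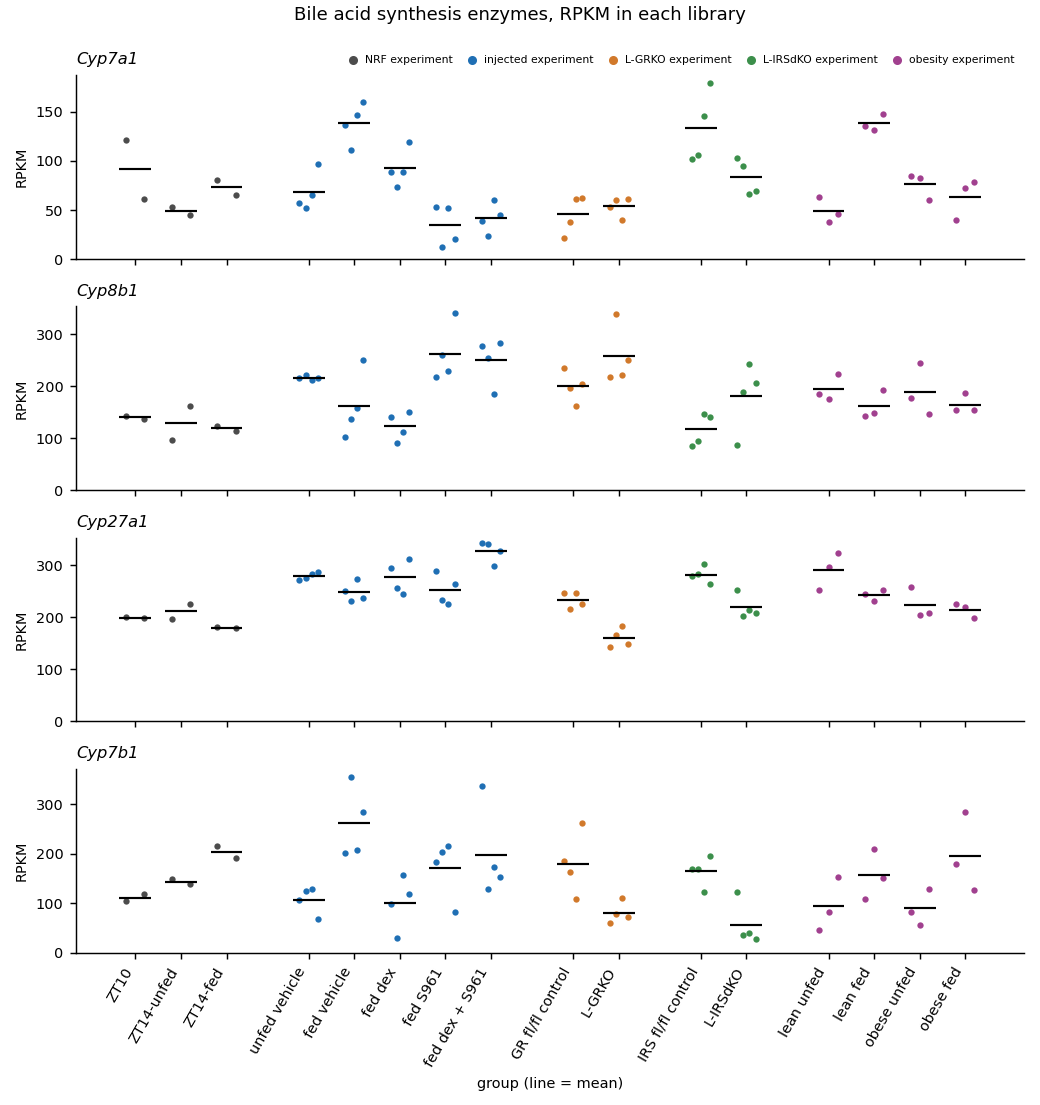
RPKM of the 4 bile acid synthesis enzymes in each of the 54 libraries (points, coloured by experiment) with the group mean (line), by group on the horizontal axis. Cyp7a1 lay between 111 and 160 RPKM in fed vehicle livers and between 12.1 and 52.8 RPKM in fed S961 livers, and 3 of 4 L-IRSdKO libraries held Cyp7b1 at 28.2 to 39.1 RPKM.

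Levels were not compared between experiments. The 6 hepatocyte markers summed to 2068 to 2624 RPKM in the L-IRSdKO experiment, in controls and knockouts alike, against at least 27850 RPKM in every other library; the source of this gap was not tested. Correlations of log2 values between libraries of a group ran from 0.937 in the L-IRSdKO experiment to 0.992 in the NRF experiment, and L-IRSdKO replicate 1 had the lowest mean correlation with its group, at 0.940. The targeted Nr3c1 (GR) was 12.8, 14.5, 13.2 and 16.2 RPKM in GR fl/fl controls and 3.93, 4.23, 4.14 and 5.35 RPKM in L-GRKO livers. Irs1 was 2.21, 4.70, 4.73 and 4.50 RPKM in IRS fl/fl controls and 0.149, 0.155, 0.321 and 0.170 RPKM in L-IRSdKO livers. Irs2 was 0.614, 1.63, 5.61 and 0.929 RPKM in the controls and 0.272, 1.00, 0.932 and 0.886 RPKM in the knockouts, so its groups overlapped (adjusted p = 0.308, limma) and it did not by itself check the label. In whole liver, fewer cells of a type and less RNA per cell cannot be told apart.

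Next, the peaks around the members were counted, because dex acts through GR and insulin signaling restrains FOXO1. The lists hold 10446 GR peaks and 8546 FOXO1 peaks from ZT14-unfed livers and 83592 DHSs, all in mm9, with positions and no level per condition. Each of the 10 members had at least 1 GR peak, 1 FOXO1 peak and 1 DHS within 50 kb of its transcription start. Among 19618 placed genes, 33.8% had a GR peak, 35.4% a FOXO1 peak and 88.4% a DHS in that window, and among the 10236 of them that were expressed the shares were 47.9%, 50.7% and 99.7%. GR peaks ranged from 2 at Abcb11 to 8 at Cyp8b1, and FOXO1 peaks from 2 at Slc10a1 and Abcb11 to 8 at Cyp8b1. Counted once each, 51 GR peaks lay near the members, of which 35 (68.6%) overlapped a FOXO1 peak, against 48.8% of all GR peaks in the genome. Of these 51 GR peaks, 37 (72.5%) lay on a DHS, against 81.6% of all GR peaks.

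The share of all genes with both a GR peak and a FOXO1 peak centred within 0.5 kb upstream of the annotated start was not computed. Of the members, 4 had both. These were the genes for the rate-limiting enzyme Cyp7a1 (GR centre 177 bp and FOXO1 centre 201 bp upstream), the repressor Nr0b2 (253 and 351 bp upstream), the bile salt pump Abcb11 (388 and 397 bp upstream) and the half-transporter Abcg5 (21 and 43 bp upstream). The Abcg5 site lies also before most annotated Abcg8 transcripts: the genes are divergent, and shorter Abcg8 transcripts start 89 to 122 bp from the same GR peak, whereas the longest annotated Abcg8 transcript starts 6730 bp before it. At Cyp8b1 the FOXO1 centre lay 33 bp upstream and the nearest GR centre 7276 bp upstream, and at Slc10a1 the GR centre lay 85 bp upstream and the nearest FOXO1 centre 8167 bp upstream. At Cyp7b1 the nearest GR and FOXO1 centres lay 3101 and 3147 bp upstream.

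**Figure D2:**
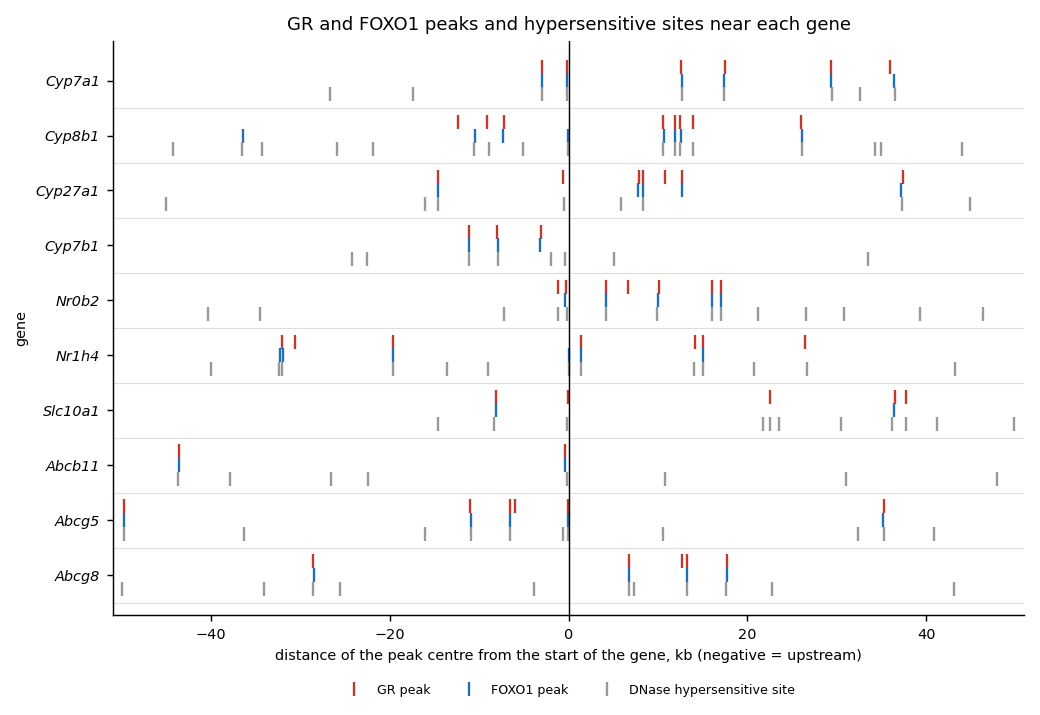
Centres of GR peaks (red), FOXO1 peaks (blue) and DHSs (grey) within 50 kb of the start of each member, with distance in kb on the horizontal axis (negative is upstream) and genes in rows. GR and FOXO1 ticks coincide at the start of Cyp7a1, Nr0b2, Abcb11 and Abcg5, and Cyp8b1 carries 8 of each.

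For Cyp8b1, Cyp27a1, Cyp7b1, Nr1h4, Abcb11 and Abcg8, which each changed in at least 1 comparison below, the sequence of a site bound by both factors is shown, namely the joined span of an overlapping GR and FOXO1 peak, on the gene's strand (mm9). Capitals mark the GR half-site AGAACA or the forkhead letters TGTTTAC, searched on both strands, so that they also read TGTTCT and GTAAACA. The forkhead letters fit FOXO1 and other forkhead factors such as FOXA.
Cyp8b1, chr9:121832609-121832810, minus strand: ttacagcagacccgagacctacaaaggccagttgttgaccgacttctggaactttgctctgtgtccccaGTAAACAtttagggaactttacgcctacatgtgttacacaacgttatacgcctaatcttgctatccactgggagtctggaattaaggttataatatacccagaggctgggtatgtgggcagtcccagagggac
Cyp27a1, chr1:74767835-74768099, plus strand: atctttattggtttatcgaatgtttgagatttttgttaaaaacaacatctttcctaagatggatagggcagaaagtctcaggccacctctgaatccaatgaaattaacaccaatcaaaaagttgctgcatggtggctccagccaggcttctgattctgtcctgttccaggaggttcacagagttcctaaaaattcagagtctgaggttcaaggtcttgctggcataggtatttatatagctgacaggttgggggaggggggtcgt
Cyp7b1, chr3:18146349-18146574, minus strand: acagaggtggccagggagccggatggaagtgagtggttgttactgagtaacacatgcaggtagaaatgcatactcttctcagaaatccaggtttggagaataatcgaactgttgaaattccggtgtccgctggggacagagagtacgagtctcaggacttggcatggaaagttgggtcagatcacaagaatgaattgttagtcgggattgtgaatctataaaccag
Nr1h4, chr10:88994798-88995038, minus strand: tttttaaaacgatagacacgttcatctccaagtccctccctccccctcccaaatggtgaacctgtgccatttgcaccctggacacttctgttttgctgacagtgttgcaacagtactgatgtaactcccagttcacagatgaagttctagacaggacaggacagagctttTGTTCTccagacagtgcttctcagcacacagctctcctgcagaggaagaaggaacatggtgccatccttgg
Abcb11, chr2:69180969-69181157, minus strand: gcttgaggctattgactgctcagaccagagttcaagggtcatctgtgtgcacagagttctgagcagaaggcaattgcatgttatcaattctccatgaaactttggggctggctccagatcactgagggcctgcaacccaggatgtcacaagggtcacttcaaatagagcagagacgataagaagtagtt
Abcg8, chr17:85088814-85088999, plus strand: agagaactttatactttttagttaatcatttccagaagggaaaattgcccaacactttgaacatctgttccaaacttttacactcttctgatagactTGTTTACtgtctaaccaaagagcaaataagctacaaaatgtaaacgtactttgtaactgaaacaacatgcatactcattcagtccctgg
The Nr1h4 span lies in an intron and holds 1 GR half-site. The Cyp8b1 span upstream of the gene and the Abcg8 span in an intron each hold 1 forkhead match. The Cyp27a1 span (intron) and the Cyp7b1 and Abcb11 spans (upstream) hold neither. The GR and FOXO1 peaks of the Cyp8b1, Cyp27a1 and Cyp7b1 spans did not overlap a DHS, whereas the GR peaks of the other spans did. None of the 6 spans shown holds AAGGTCA, a half-site of monomeric nuclear receptors, or its reverse TGACCTT. Over all GR peaks, 27.7% held the GR half-site and 7.29% the forkhead letters, over all FOXO1 peaks 19.5% and 18.8%, and over windows of 250 bases before to 50 after each gene start 16.5% and 3.16%. A match describes the letters and no occupancy beyond the peaks themselves.

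To test how time of day and food act on these genes, each experiment was fitted with limma on log2(RPKM + 0.5), and a gene was called at a Benjamini-Hochberg adjusted p under 0.01 in the NRF and obesity experiments and under 0.05 in the others. Log2 differences are on that scale. The p-values weigh each difference against the spread between libraries within groups, pooled over the groups of an experiment and moderated over all genes.

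ZT14-unfed mice had also passed lights off and gone longer without food than ZT10 mice. Clock time, darkness and longer fasting cannot be told apart in this comparison. From ZT10 to ZT14 without food, Abcg8 fell. It was 24.4 and 25.3 RPKM at ZT10 and 11.7 and 13.1 RPKM in ZT14-unfed livers, a log2 difference of -0.98 (SE 0.10, adjusted p = 0.00547). No member rose and 1 of 10 fell, where 0.376% of all 10907 genes rose and 0.788% fell. Its partner Abcg5 was 36.8 and 34.3 RPKM at ZT10 and 22.8 and 23.2 RPKM in ZT14-unfed livers (log2 -0.62, adjusted p = 0.0165), and Abcb11 was 106 and 105 RPKM against 72.6 and 64.7 RPKM (log2 -0.62, adjusted p = 0.0175). Neither passed the threshold. Their groups did not overlap, but the share of all genes without overlap was not computed, for this or any later comparison. Non-overlap is therefore given as a description. Of 44 other genes of the pathway tested, 0 rose and 1 fell, Hsd3b7, an early enzyme of the ring modification, from a mean of 106 to 47.9 RPKM. The Abcg8 call was lost without ZT10 replicate 1, ZT10 replicate 2 or ZT14-unfed replicate 2 (highest adjusted p = 0.0335) and with median ratio scaling (log2 -0.86, adjusted p = 0.0109). Hepatocyte markers summed to 33500 to 34410 RPKM in ZT14-unfed and 30030 to 30250 RPKM in ZT10 livers, stellate and fibroblast markers to 74.3 to 76.4 and 58.9 to 71.7 RPKM, and 5 ileal enterocyte markers to 68.3 to 99.5 and 53.5 to 59.5 RPKM, and their part was not tested.

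Across the whole interval to ZT14-fed, Cyp7b1 rose and Abcg8 stayed below its ZT10 level. Cyp7b1 was 104 and 118 RPKM at ZT10, 148 and 139 RPKM in ZT14-unfed livers and 217 and 192 RPKM in ZT14-fed livers. The 3 groups were thus separate in that order. The difference of ZT14-fed from ZT10 was 0.88 on the log2 scale (SE 0.11, adjusted p = 0.00603). Abcg8 at 13.02 and 12.1 RPKM in ZT14-fed livers fell by 0.96 against ZT10 (SE 0.10, adjusted p = 0.00351). So 1 member rose and 1 fell, where 0.899% of all genes rose and 0.807% fell. Both calls were lost without any 1 of the 4 libraries compared (adjusted p up to 0.0526). Of 44 pathway genes, 1 rose and 0 fell. The ileal enterocyte markers, mainly Fabp2 and Apoa4, summed to 62.1 to 72.0 RPKM in ZT14-fed livers, above ZT10, and their part was not tested.

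The meal itself, ZT14-fed against ZT14-unfed, called no member in limma, with 3 of 10 at an unadjusted p under 0.05 against 27.7% of all genes; by adjusted p, 0.568% of all genes rose and 0.422% fell. The lowest adjusted p among the members was that of Cyp7b1 (log2 0.51, SE 0.11, adjusted p = 0.0372). Of 44 pathway genes, 1 rose and 0 fell. The median of all genes stood at 0.12 on the log2 scale in this comparison, and after median ratio scaling Cyp7b1 stood at 0.37 with an adjusted p of 0.144. In these and the following comparisons groups are shared, so results of 2 comparisons with 1 common group are not independent.

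In vehicle-injected mice, the meal called no member in limma, with 6 of 10 at an unadjusted p under 0.05 against 19.3% of all genes; by adjusted p, 2.55% of all 11251 genes rose and 0.578% fell. Cyp7a1 was 57.6, 52.1, 65.6 and 96.8 RPKM in unfed vehicle livers and 136, 112, 147 and 160 RPKM in fed vehicle livers, with no overlap (log2 1.05, SE 0.37, adjusted p = 0.123). Cyp7b1 was 107, 125, 129 and 69.1 RPKM unfed and 202, 356, 207 and 285 RPKM fed, again with no overlap (log2 1.29, SE 0.42, adjusted p = 0.0997). When the 2 groups were fitted without the other 3, whose spread is pooled above, both had an adjusted p under 0.05 (0.0284 for Cyp7a1 and 0.0287 for Cyp7b1). Cyp8b1 stood at 213 to 221 RPKM in the 4 unfed livers and at 103, 136, 158 and 252 RPKM in the fed livers. Its log2 difference was -0.49 (SE 0.22, adjusted p = 0.226). Without fed vehicle replicate 4, the library at 252 RPKM, that difference was -0.73 (adjusted p = 0.0471). Slc10a1 had a log2 difference of -0.30 (adjusted p = 0.123), or -0.40 without fed vehicle replicate 3 (adjusted p = 0.0439). Leaving out a library that narrows a difference widens it, so these values show dependence on a single library and add no support. Of 44 pathway genes, 1 rose and 2 fell, the latter being Akr1d1, the reductase of the bile acid ring system, and Nr1i2 (PXR), a xenobiotic and bile acid receptor (means of 81.1 to 58.3 and 40.1 to 28.6 RPKM). The 6 Kupffer cell and macrophage markers summed to 65.9 to 94.0 RPKM in fed vehicle and 46.1 to 54.9 RPKM in unfed vehicle livers, with no marker at 0, and their part in these results was not tested.

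The meal in lean mice of the obesity experiment called 3 members. Cyp7a1 was 63.0, 37.8 and 46.3 RPKM in lean unfed livers and 136, 131 and 148 RPKM in lean fed livers. The groups did not overlap, and Cyp7a1 rose by 1.52 on the log2 scale (SE 0.25, adjusted p = 0.00229). The bile acid receptor gene Nr1h4 rose from 57.8, 58.0 and 53.4 RPKM to 83.5, 73.9 and 81.9 RPKM (log2 0.50, SE 0.09, adjusted p = 0.00390). Abcg8 fell from 27.9, 35.2 and 28.9 RPKM to 19.5, 17.2 and 12.7 RPKM (log2 -0.89, SE 0.16, adjusted p = 0.00314). So 2 of 10 members rose and 1 fell, where 7% of all 11434 genes rose and 3.23% fell.

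Below the threshold in lean mice stood the repressor Nr0b2, at 23.0, 22.9 and 32.2 RPKM unfed and 14.7, 17.04 and 11.2 RPKM fed (log2 -0.84, adjusted p = 0.0396), and Abcg5, at 39.8, 45.5 and 42.4 RPKM unfed and 34.2, 29.8 and 25.8 RPKM fed (log2 -0.51, adjusted p = 0.0210). Neither overlapped between groups. Of 45 pathway genes, 1 rose, the canalicular flippase Atp8b1 (3.09 to 6.11 RPKM), and 3 fell, the lysosomal cholesterol transporter Npc1 (32.5 to 16.4 RPKM), the organic anion pump Abcc2 (128 to 74.8 RPKM) and Nr1i2 (47.8 to 32.2 RPKM). All 3 member calls were lost without lean unfed replicate 2, lean unfed replicate 3 or lean fed replicate 3 (adjusted p up to 0.0115 for Cyp7a1, 0.0175 for Nr1h4 and 0.0152 for Abcg8), the Nr1h4 call also without lean fed replicate 1 and the Abcg8 call without lean fed replicate 2. The 5 endothelial markers summed to 39.3 to 46.3 RPKM fed and 54.4 to 65.6 RPKM unfed, and the 5 stellate and fibroblast markers to 41.1 to 55.3 and 57.2 to 93.6 RPKM. The 7 cholangiocyte markers summed to 17.9 to 27.7 and 14.8 to 16.2 RPKM. Of these 7, Krt7, Epcam and Cftr averaged under 0.5 RPKM over all libraries. The part of these markers was not tested.

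In obese mice the meal called no member in limma, with 4 of 10 at an unadjusted p under 0.05 against 25.2% of all genes; by adjusted p, 0.962% of all genes rose and 0.262% fell. Cyp7a1 was 85.2, 83.1 and 60.0 RPKM in obese unfed livers and 39.7, 72.2 and 79.1 RPKM in obese fed livers, so the groups overlapped. Abcg8 was 36.2, 48.6 and 41.2 RPKM unfed and 27.0, 23.0 and 24.8 RPKM fed (log2 -0.73, SE 0.16, adjusted p = 0.0222), and Abcg5 was 49.0, 63.8 and 55.6 RPKM unfed and 41.2, 34.2 and 45.7 RPKM fed (log2 -0.47, adjusted p = 0.0567). Both sterol transporters were thus separate between obese unfed and obese fed livers without passing the threshold. The fall was not seen in every meal comparison. In NRF mice Abcg5 was higher in fed livers (log2 0.24, without overlap) and Abcg8 stood at 0.02. In vehicle-injected mice Abcg5 stood at -0.36 and Abcg8 at -0.43, both with overlap. None of these 4 values was called. No other pathway gene of 45 was called.

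Whether the meal acted differently by diet was tested as an interaction. Cyp7a1 had a difference of -1.82 between its meal responses on the log2 scale (SE 0.36, 95% interval -2.60 to -1.03), with an adjusted p of 0.0465 that missed 0.01, and it was the only member with an unadjusted p under 0.05, as against 1713 of all 11434 genes. No member was called in limma, where 0.0875% of all genes were called with a positive and 0.0437% with a negative difference, obese minus lean, between signed meal responses. For Abcg8 the difference between meal responses was 0.16 (95% interval -0.33 to 0.65) and for Cyp7b1 0.28 (95% interval -1.12 to 1.68).

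Obese and lean livers were also compared directly. Unfed, no member was called in limma, with 6 of 10 at an unadjusted p under 0.05 against 22.9% of all genes; by adjusted p, 0.42% of all genes were higher and 0.35% lower in obese mice. Nr1h4 was 74.5, 67.7 and 83.0 RPKM in obese unfed livers, above all lean unfed livers (log2 0.41, adjusted p = 0.0319), and Nr0b2 was 15.7, 17.7 and 13.7 RPKM, below all lean unfed livers (log2 -0.70, adjusted p = 0.146). Fed, no member was called in limma, with 3 of 10 at an unadjusted p under 0.05 against 2284 of all 11434 genes; by adjusted p, 0% of all genes were called higher and 0% lower. Cyp7a1 had the lowest adjusted p of the members (log2 -1.17, SE 0.25, adjusted p = 0.0681), and its obese fed values all lay below the lean fed values. Of 45 pathway genes, Hsd3b7 rose in unfed obese livers (76.2 to 172 RPKM) and none was called in fed livers. Summed endothelial markers were 30.9 to 39.3 RPKM in obese unfed and 54.4 to 65.6 RPKM in lean unfed livers, hepatocyte markers 43910 to 51090 and 51440 to 60970 RPKM, and cholangiocyte markers 18.4 to 30.1 and 14.8 to 16.2 RPKM. In obese fed against lean fed livers, hepatocyte markers summed to 42670 to 45600 and 52560 to 56830 RPKM. In the same comparison, ileal enterocyte markers, mainly Fabp2 and Apoa4, summed to 225.0 to 310.2 and 163.0 to 224.4 RPKM, and stellate and fibroblast markers to 56.6 to 66.5 and 41.1 to 55.3 RPKM. The part of these markers was not tested.

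**Figure D3:**
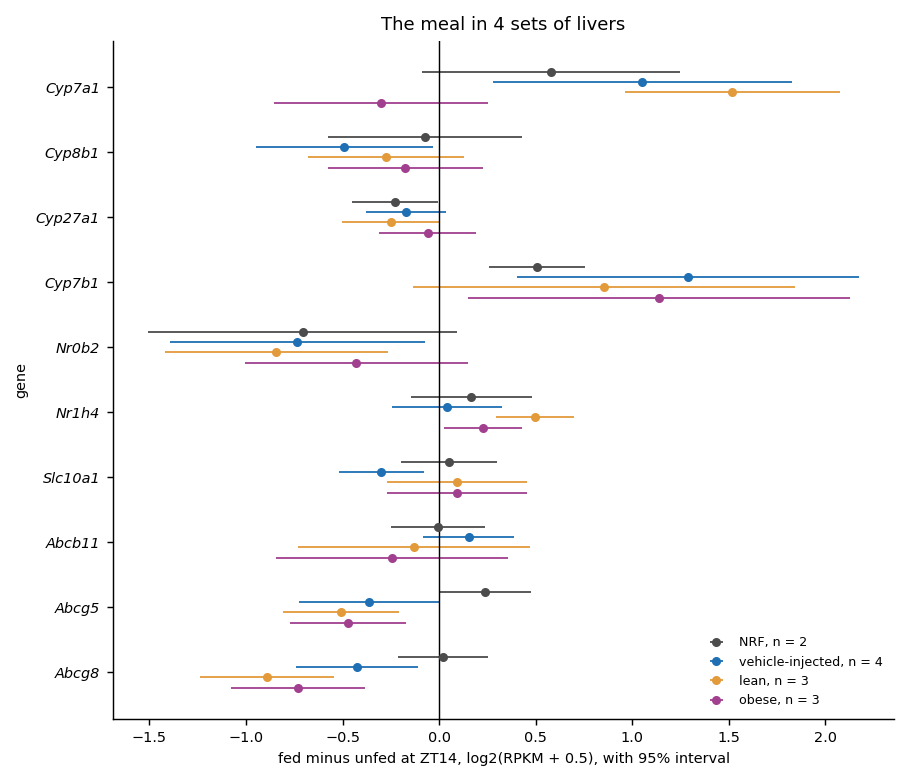
Difference of fed from unfed livers at ZT14 for each member, on the log2(RPKM + 0.5) scale with its 95% interval (bars), in NRF, vehicle-injected, lean and obese mice. The Cyp7a1 difference is 1.52 in lean and -0.30 in obese mice, and the Abcg8 difference is -0.89 in lean and -0.73 in obese mice.

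The injected experiment addressed how GR activation by dex and blockade of the insulin receptor by S961 act in fed mice. With S961, Cyp7a1 fell. Its level was 52.8, 12.1, 52.5 and 20.9 RPKM in fed S961 livers, below all 4 fed vehicle livers given above, and it fell by 2.22 on the log2 scale (SE 0.37, adjusted p = 0.00410). No member rose and 1 of 10 fell, where 0.942% of all genes rose and 0.96% fell. Cyp8b1, which acts downstream of Cyp7a1, was 218, 260, 230 and 341 RPKM (log2 0.75, SE 0.22, adjusted p = 0.0954), overlapping the fed vehicle livers through fed vehicle replicate 4. Without that library, which made the groups overlap, the Cyp8b1 difference was 0.98 with an adjusted p of 0.0125. Removing such a library widens the difference, so this value shows dependence on it and adds no support. Of 44 pathway genes, 0 rose and 2 fell. When only these 2 groups were fitted, the Cyp7a1 call was lost (adjusted p = 0.0936). Kupffer cell and macrophage markers summed to 41.2 to 62.8 RPKM with S961, below fed vehicle, and their part was not tested.

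Dex alone called no member in limma, with 1 of 10 at an unadjusted p under 0.05 against 18.5% of all genes; by adjusted p, 1% of all genes rose and 2.19% fell. That member was Cyp7b1, at 98.9, 30.6, 158 and 118 RPKM in fed dex livers, below all fed vehicle livers (log2 -1.55, SE 0.42, adjusted p = 0.0504). It passed the threshold without fed dex replicate 3 (adjusted p = 0.0268), the highest of the group, or fed dex replicate 4 (adjusted p = 0.0403). Leaving out a high library widens this difference, so these values add no support. Cyp7a1 was 88.8, 73.2, 88.5 and 119 RPKM with dex, overlapping fed vehicle. Elsewhere in the pathway (44 genes), the uptake transporter Slco1a4 rose (13.9 to 29.6 RPKM), and the sterol exporter Abcg1 (1.58 to 0.744 RPKM) and Hsd3b7 (88.1 to 61.4 RPKM) fell.

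Dex and S961 together changed 3 members against fed vehicle. Cyp7a1 fell to 38.8, 23.3, 60.5 and 44.7 RPKM, below all fed vehicle livers (log2 -1.78, SE 0.37, adjusted p = 0.00470). Cyp27a1 was 250.9, 231, 274 and 238 RPKM in fed vehicle livers and rose to 343, 341, 299 and 328 RPKM (log2 0.40, SE 0.10, adjusted p = 0.0132). Abcb11 was 85.8, 75.4, 67.4 and 63.3 RPKM in fed vehicle livers and fell to 45.0, 52.7, 56.8 and 43.3 RPKM (log2 -0.56, SE 0.11, adjusted p = 0.00395). None of these 3 pairs of groups overlapped. So 1 member rose and 2 fell, where 2.7% of all genes rose and 7.9% fell.

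The median of all genes in that comparison was -0.14 on the log2 scale. After median ratio scaling, which brings it to about 0, Cyp27a1 stood at 0.56, Abcb11 at -0.40 and Cyp7a1 at -1.63, and Cyp8b1 (0.84, adjusted p = 0.0301) and Abcg8 (0.56, adjusted p = 0.0374) were called as well. The Cyp27a1 call was lost without fed vehicle replicate 2 (adjusted p = 0.0501). Of 44 pathway genes, 3 rose, led by Amacr, a racemase of side chain oxidation (37.0 to 61.2 RPKM), and 5 fell, among them Atp8b1 (6.85 to 3.20 RPKM) and the FGF receptor gene Fgfr4 from 7.17 to 4.53 RPKM. Kupffer cell and macrophage markers summed to 48.8 to 59.4 RPKM with both agents, below fed vehicle, and their part was not tested.

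Against unfed vehicle livers, the fed livers with both agents had no called member in limma, with 3 of 10 at an unadjusted p under 0.05 against 11.8% of all genes; by adjusted p, 1.32% of all genes rose and 1% fell. Abcb11 lay below all unfed vehicle livers, which were 60.4, 63.1, 70.3 and 67.2 RPKM (log2 -0.40, SE 0.11, adjusted p = 0.0700). Without fed dex + S961 replicate 3, the highest of its group, Abcb11 had an adjusted p of 0.0499, which shows dependence on that library. Nr0b2 was 6.87, 4.82, 11.98 and 5.62 RPKM against 12.7, 17.8, 11.3 and 13.4 RPKM (log2 -0.93, SE 0.32, adjusted p = 0.171). In the pathway list of 44, 1 gene rose, Amacr (39.1 to 61.2 RPKM), and 1 fell.

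Set against each other, the agents differed in the classical pathway. Cyp7a1 was higher with dex than with S961 in all pairs of livers (log2 1.63, SE 0.37, adjusted p = 0.00840). Cyp8b1 was lower with dex, at 140, 90.8, 112 and 150 RPKM against 218 to 341 RPKM (log2 -1.09, SE 0.22, adjusted p = 0.00344). So 1 member was called higher and 1 lower, where 2.83% of all genes were higher and 4.64% lower. Nr1h4 just missed the threshold, at 47.2, 37.3, 43.1 and 39.7 RPKM with dex and 49.2, 50.9, 67.2 and 62.9 RPKM with S961 (log2 -0.45, adjusted p = 0.0502). Of 44 pathway genes, 4 were higher with dex, among them Fgfr4 (8.29 against 5.30 RPKM, with overlap), and 5 lower, among them the phospholipid transporter Abcb4 (46.0 against 76.9 RPKM) and the peroxisomal transporter Abcd3 (125 against 212 RPKM). When only these 2 groups were fitted, the Cyp7a1 call was lost (adjusted p = 0.0761).

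The interaction of dex and S961 called no member in limma, with 1 of 10 at an unadjusted p under 0.05 against 4.56% of all genes; by adjusted p, 0% of all genes were called higher and 0% lower. That member was Cyp7b1, whose log2 difference from fed vehicle was -1.55 with dex, -0.67 with S961 and -0.47 with both agents. The interaction is the difference with both agents minus those with each agent alone. It was 1.75 on the log2 scale (SE 0.60, 95% interval 0.50 to 3.00, unadjusted p = 0.00861, adjusted p = 0.9997). In fed dex + S961 livers Cyp7b1 was 338, 129, 173 and 153 RPKM, against 184, 204, 216 and 81.8 RPKM with S961.

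In L-GRKO livers, where Cre targets GR in hepatocytes, both enzymes of the alternative pathway fell. Cyp27a1 was 247, 216, 247 and 225 RPKM in GR fl/fl controls and 142, 166, 182 and 148 RPKM in L-GRKO livers, without overlap (log2 -0.55, SE 0.10, adjusted p = 0.00943). Cyp7b1 was 186, 163, 109 and 262 RPKM in controls and 59.9, 78.3, 111 and 71.3 RPKM in L-GRKO livers (log2 -1.13, SE 0.25, adjusted p = 0.0237). L-GRKO replicate 3 and control replicate 3 overlapped for Cyp7b1. No member rose and 2 of 10 fell, where 4.46% of all 11649 genes rose and 2.22% fell. The Cyp7b1 call was lost without control replicate 1 or 2 or L-GRKO replicate 1 or 2 (adjusted p up to 0.0676).

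The classical enzymes were not called in L-GRKO livers. Cyp7a1 was 21.8, 37.5, 61.4 and 62.0 RPKM in controls and 53.3, 60.7, 40.4 and 61.3 RPKM in L-GRKO livers, so the groups overlapped. Cyp8b1 was 235, 197, 163 and 204 RPKM in controls and 218, 340, 221 and 251.4 RPKM in L-GRKO livers (log2 0.35, SE 0.16, adjusted p = 0.232). Nr1h4 was 43.4, 35.0, 34.1 and 41.1 RPKM in controls and 46.3, 48.1, 47.7 and 44.5 RPKM in L-GRKO livers, with no overlap (log2 0.28, SE 0.10, adjusted p = 0.120).

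Slc10a1 averaged 253 ± 30.1 RPKM in controls and 253 ± 24.3 RPKM in L-GRKO livers (SD, n = 4). Of 45 pathway genes, 6 rose and 2 fell. The genes that fell were Cyp39a1, an oxysterol hydroxylase (16.1 to 3.76 RPKM), and Acox2, a peroxisomal oxidase of the bile acid side chain (53.3 to 20.9 RPKM). Those that rose were led by Cyp46a1 (0.788 to 2.02 RPKM), Abcd3 (167.8 to 300 RPKM) and Soat2 (10.6 to 16.2 RPKM).

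In L-IRSdKO livers, fed and given dex like their controls, 4 members changed. Cyp7b1 was 170, 169, 123 and 196 RPKM in controls and 123, 34.9, 39.1 and 28.2 RPKM in L-IRSdKO livers (log2 -1.79, SE 0.40, adjusted p = 0.0191). All 4 knockout values were below the controls, but L-IRSdKO replicate 1, at 122.9 RPKM, lay just under the lowest control at 123.3 RPKM. Cyp27a1 fell from 279, 283, 303 and 264 RPKM to 253, 203, 215 and 209 RPKM (log2 -0.36, SE 0.08, adjusted p = 0.0162). Abcb11 fell from 60.8, 68.8, 84.9 and 75.2 RPKM to 52.15, 47.6, 51.02 and 64.1 RPKM, with overlap in 1 library of each group (log2 -0.43, SE 0.12, adjusted p = 0.0434). Abcg8 rose from 35.7, 40.8, 26.4 and 27.9 RPKM to 44.0, 59.5, 57.8 and 66.2 RPKM (log2 0.80, SE 0.17, adjusted p = 0.0141). So 1 member rose and 3 fell, where 9.06% of all 12966 genes rose and 8.31% fell.

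These calls depended on single libraries, except that of Abcg8, whose adjusted p stayed between 0.00363 and 0.0460 with each library left out. The Abcb11 call was lost without control replicate 2, 3 or 4 or L-IRSdKO replicate 1, 2 or 3 (adjusted p up to 0.119), the Cyp7b1 call without control replicate 4 or L-IRSdKO replicate 2, 3 or 4 (adjusted p up to 0.0584), and the Cyp27a1 call without L-IRSdKO replicate 2 (adjusted p = 0.0526). Without L-IRSdKO replicate 1, 7 members were called: Cyp7b1 (log2 -2.25, adjusted p = 9.48e-05), Cyp27a1 (-0.43), Cyp7a1 (-0.77, adjusted p = 0.0310) and Nr1h4 (-0.50, adjusted p = 0.00486) were lower, and Abcg8 (0.91), Cyp8b1 (0.89, adjusted p = 0.0128) and Abcg5 (0.32, adjusted p = 0.0410) were higher. The share of all genes called in that fit was not computed, so this count has no background and says nothing particular to the members.

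With all 8 libraries, Cyp7a1 was 102, 106, 146 and 179 RPKM in controls and 103, 94.8, 66.4 and 69.4 RPKM in L-IRSdKO livers (log2 -0.66, SE 0.21, adjusted p = 0.0605). Nr0b2 was 30.4, 80.2, 22.9 and 39.4 RPKM in controls and 48.0, 59.1, 42.8 and 54.2 RPKM in knockouts, with wide overlap. Of 46 pathway genes, 6 rose and 10 fell. The sodium-dependent transporter Slc10a2 (37.3 to 8.43 RPKM) and the organic anion uptake transporters Slco1a1 (105 to 28.9 RPKM) and Slco2b1 (45.3 to 16.7 RPKM) fell most, and Slco1a4 (20.8 to 63.0 RPKM), the export pump Abcc4 (0.777 to 1.98 RPKM) and the FGF co-receptor Klb (9.85 to 18.9 RPKM) rose most. The 7 cholangiocyte markers summed to 14.02 to 31.8 RPKM in L-IRSdKO livers and 52.5 to 84.0 RPKM in controls, carried by Slc10a2, itself one of the pathway genes, and Spp1, with Krt7 and Krt19 at most 1.42 RPKM, and their part was not tested.

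**Figure D4:**
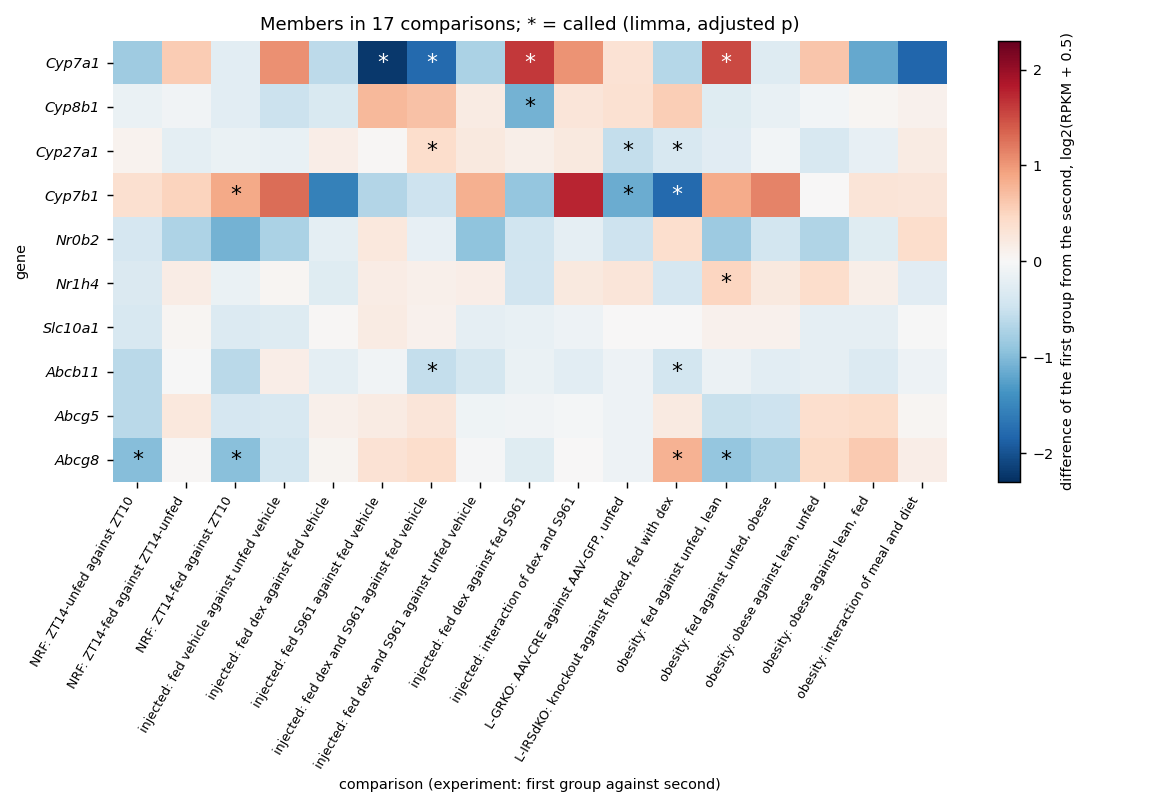
Difference of the first group from the second for each member (rows) in the 17 comparisons (columns), on the log2(RPKM + 0.5) scale (colour), with an asterisk where limma called the gene. There are 18 asterisks, and Nr0b2, Slc10a1 and Abcg5 have none.

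Over the 17 comparisons, which share groups, the members were called 18 times. Cyp7a1 was called in 4 comparisons, Abcg8 in 4, Cyp27a1 and Cyp7b1 in 3 each, Abcb11 in 2, and Cyp8b1 and Nr1h4 in 1 each. The repressor Nr0b2, the uptake transporter Slc10a1 and the half-transporter Abcg5 were called in none. The differences of Nr0b2 between fed and unfed livers were -0.71 in NRF, -0.73 in vehicle-injected, -0.84 in lean and -0.43 in obese mice on the log2 scale, none of which passed its threshold.

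**Figure D5:**
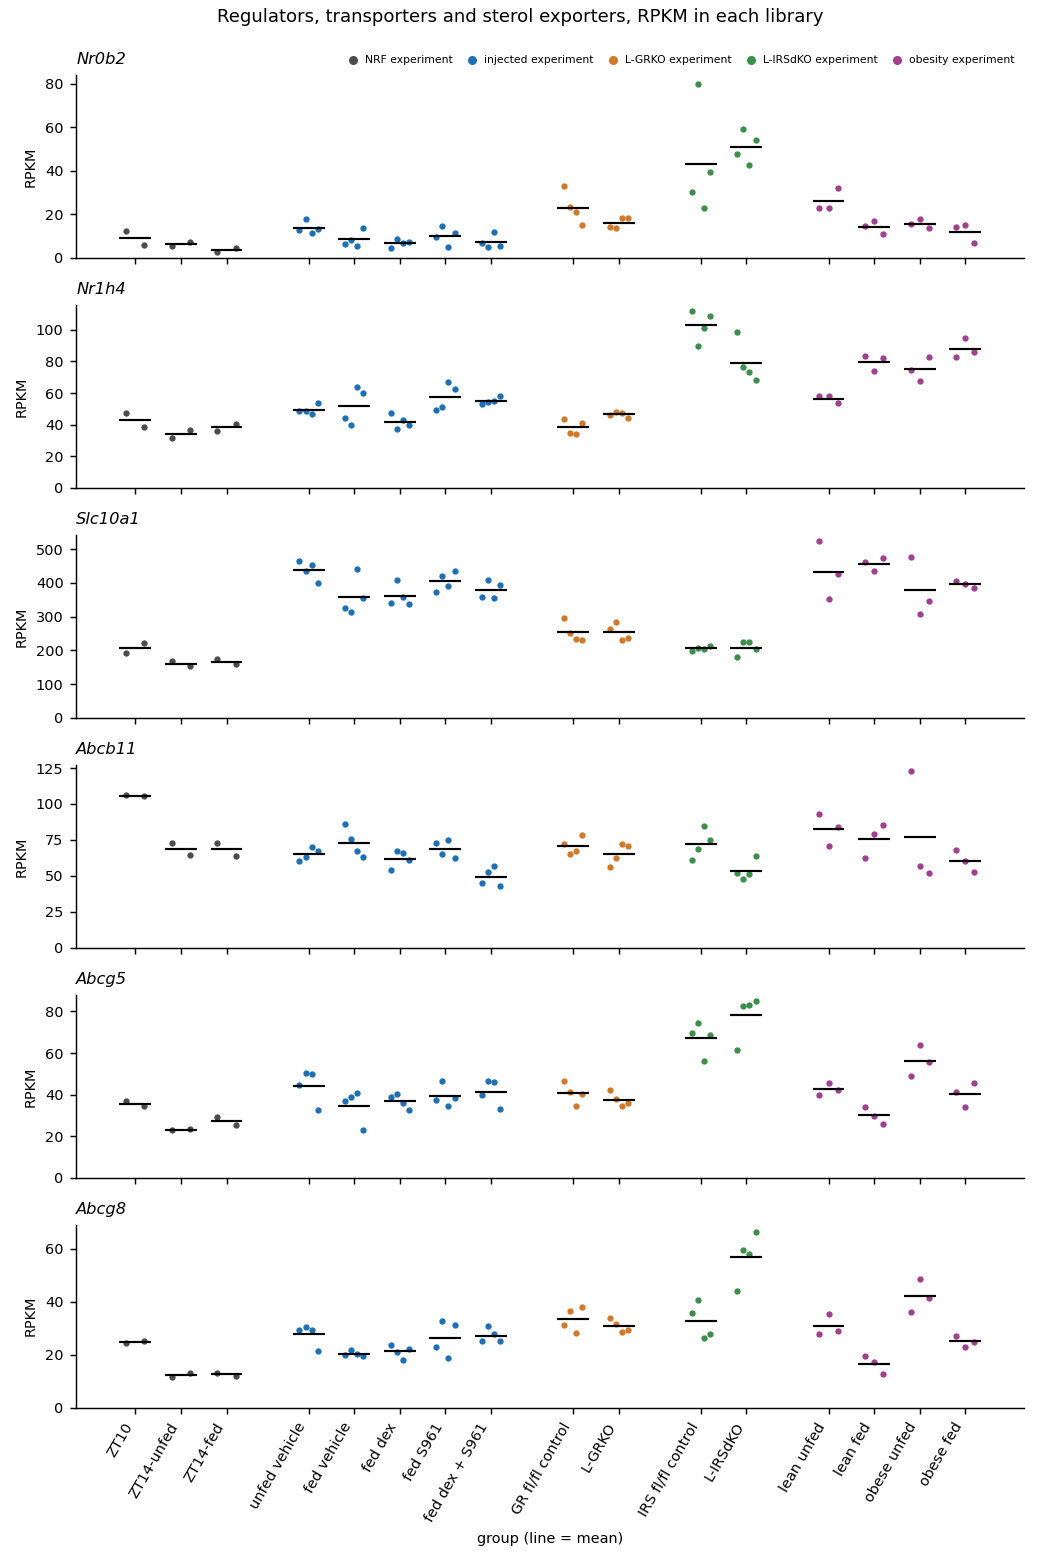
RPKM of the nuclear receptors, transporters and sterol export genes in each of the 54 libraries (points, coloured by experiment) with the group mean (line), by group on the horizontal axis. Abcg8 lay between 44.0 and 66.2 RPKM in L-IRSdKO livers against 26.4 to 40.8 RPKM in their controls.

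Abcg5 and Abcg8 were the closest pair among the members. With each gene centred on its experiment's mean, their log2 values correlated across the 54 libraries at a Pearson r of 0.82, and the next pair, Cyp8b1 and Abcg8, at 0.39. The most opposed pair was Cyp7a1 and Abcg8 at -0.48, followed by Cyp7a1 and Cyp8b1 at -0.44. Libraries of a group share their treatment, so these values describe the libraries. The annotated Abcg5 and Abcg8 genes overlap by 6710 bases on opposite strands, through the longest Abcg8 transcript, and whether reads were counted by strand was not given in the sources used here. The Abcg8 values come from a non-coding RefSeq transcript, the ID of highest mean, and the coding ID gave the same calls.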

How the data were processed

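RNA was measured in 54 liver libraries, and peak lists gave the binding of FOXO1 and GR and the accessible sites. The authors aligned reads to mm9 with STAR, and the deposited values are RPKM per RefSeq transcript, from ribosome-depleted RNA in the NRF experiment and poly(A) RNA in the others. RPKM is not corrected for a few abundant genes. The paper's supplement lists sequencing totals for libraries of the L-GRKO, L-IRSdKO and obesity experiments, lowest in the L-IRSdKO experiment. Counts per gene were not used here, so no counting error is given. The deposited peak lists hold positions only. The authors called peaks with HOMER, kept GR and FOXO1 peaks found in both replicates and called DHSs on combined reads.

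Of 35707 RefSeq IDs, 35407 had a symbol, and the ID of highest mean stood for each of 24312 symbols. Each experiment had its own limma fit (version 3.58.1, run under R 4.3.3) of log2(RPKM + 0.5) values, using a variance trend and a filter at a mean of 0.5 RPKM, two-sided, and adjusted over all genes tested. The thresholds are those of the study for each experiment. The fits were tested on simulated data. Peaks were joined to genes by a centre within 50 kb of the start in the GENCODE annotation of mm9, and GR and FOXO1 peaks sharing at least 1 base were counted as shared. Sequences are from mm9.

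The members, the lists of pathway genes and cell type markers, and the comparisons were chosen with earlier results of these data known. The rule named all members, the knocked out genes, the 3 called pathway genes of largest change in each direction, and the 3 genes most correlated with each member; some items that it selects are not reported here. Alternatives covered the pseudocount, filter, scaling, variance trend, RefSeq ID, replicate block, pooling of groups, threshold and each library left out. The coding ID of Abcg8 was added after seeing the data.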

Additional observations from a re-analysis of the deposited data

Results flagged for a closer look

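Among the 90 sets of 4 libraries examined (each member in each group of 4), 3 had 1 library far from the others by Dixon's criterion, which chance meets in about 1 in 20 such sets. Cyp7b1 was 122.9 RPKM in L-IRSdKO replicate 1 and 28.2 to 39.08 RPKM in the other L-IRSdKO livers. Abcg5 was 61.64 RPKM in the same library and 82.51 to 84.81 RPKM in the others of its group. Abcg8 was 21.53 RPKM in unfed vehicle replicate 4 and 29.12 to 30.48 RPKM in the other unfed vehicle livers. That library had the lowest mean correlation of its group, at 0.970, as replicate 4 did in each injected group. L-IRSdKO replicate 1 also had the lowest mean correlation with its group, at 0.940, and whether it differs in handling or genotype was not tested.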

How the results depend on the processing

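Of 70 member differences with an unadjusted p under 0.05, none changed direction under any of 1260 alternative values. They were followed for their low p, so a kept direction was likely beforehand. Of these values, 1155 kept their side of the threshold, 67 lost a call and 38 gained one. Only the 18 differences called in the main fit could lose a call. Of their 328 alternative values, 261 kept the call and 67 lost it. Counts of members called that moved by more than 1.5 times are given here, with gains and losses of single members below that left out, and causes were not tested. The share of all genes called under each alternative was not computed. With no filter, which tests more genes, no member was called for ZT14-unfed against ZT10, ZT14-fed against ZT10, L-GRKO, L-IRSdKO or the lean meal (0 in each). A filter at 2 RPKM gave 2 for ZT14-unfed against ZT10 and 1 for dex. Median ratio scaling gave 0 for ZT14-unfed against ZT10, 1 for ZT14-fed against ZT10 and 5 for dex + S961 against fed vehicle, and quantile normalization gave 0 for ZT14-unfed against ZT10. A pseudocount of 1 or all RefSeq IDs gave 1 for dex, and no variance trend gave 1 for ZT14-fed against ZT10. Exchanging the thresholds of 0.01 and 0.05 gave 3 for ZT14-unfed against ZT10, 1 for ZT14-fed against ZT14-unfed, 1 for L-GRKO, 0 for L-IRSdKO, 5 for the lean meal, 1 for the obese meal, 1 for obese against lean unfed and 1 for the interaction of meal and diet. The compared groups alone gave 0 for ZT14-unfed against ZT10, 2 for the vehicle meal, 0 for S961 and 1 for dex against S961. A term for the numbering series in the library names gave 1 for dex, 2 for S961 and 1 for dex + S961 against unfed vehicle. With a replicate block the counts were 0 for ZT14-unfed against ZT10, 0 for ZT14-fed against ZT10, 1 for the vehicle meal, 1 for dex, 2 for S961, 1 for dex + S961 against unfed vehicle and 1 for L-GRKO. In no comparison did every same-numbered pair of libraries deviate together with a correlation over 0.1 (range -0.201 to 0.605), so the numbers were not taken to pair them. The highest pair of each injected comparison nonetheless reached 0.441 to 0.605, against at most 0.215 in the other experiments. In each injected group, replicate 4 had the lowest mean correlation with its group (0.961 to 0.972). A structure shared by these libraries was not tested beyond the alternatives above. With each library left out, the counts ran from 0 to 1 for ZT14-unfed against ZT10, 0 to 0 for ZT14-fed against ZT10, 0 to 1 for the vehicle meal, 0 to 1 for dex, 1 to 2 for S961, 2 to 4 for dex + S961 against fed vehicle, 0 to 1 for dex + S961 against unfed vehicle, 1 to 2 for L-GRKO, 1 to 7 for L-IRSdKO and 0 to 3 for the lean meal. Where the NRF experiment is left with 1 library in a group, that library is assumed to vary like the others. All 10 members had a GR peak shared with FOXO1 under each window and overlap rule tried, and the share of all genes with such a site was not computed. Counts per gene were not used, so how far counting noise limits low values such as Nr0b2 could not be given.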

Other observations

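Among 10468 genes tested in all 5 experiments, the genes whose centred log2 values followed each member most closely over the 54 libraries are given as a description. For the synthesis enzymes these were Itpk1, Emc1 and S1pr1 for Cyp7a1 (r = 0.69 for each), Ackr2, Gm44502 and Rnf125 for Cyp8b1 (r = 0.77, 0.72 and 0.72), Tmc7 and Arrdc2 for Cyp27a1 (r = 0.77 and 0.76) and C6, Ugt2b1 and Mup3 for Cyp7b1 (r = 0.89, 0.84 and 0.79). Ackr2, a chemokine receptor gene on the opposite strand, ends 3291 bp from Cyp8b1, and some of the GR and FOXO1 peaks counted for Cyp8b1 lie inside it. C6 encodes a complement component and Ugt2b1 a glucuronosyltransferase, and the major urinary protein gene Mup3 has near-identical paralogs whose reads it may share.

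Of the regulators and transporters, Nr0b2 was followed by Sesn2, Arl4d and Cln8 (r = 0.66, 0.65 and 0.63), Nr1h4 by Inhbe, Paqr9 and Apon (r = 0.74, 0.72 and 0.68), Slc10a1 by Khk, Selenbp1 and Pdk1 (r = 0.65, 0.65 and 0.64) and Abcb11 by Gstm4, Epb41l5 and Rdh11 (r = 0.71, 0.66 and 0.66). The sterol exporters shared a neighbour: Abcg5 was followed by Nudt12, Ppm1k and Asah2 (r = 0.70, 0.67 and 0.67) and Abcg8 by Slc8b1, Ppm1k and Rbl2 (r = 0.85, 0.77 and 0.76). Of 48 other pathway genes with a position, 42 had a GR peak, 41 a FOXO1 peak and 48 a DHS within 50 kb of the start. The shares were 33.8%, 35.4% and 88.4% among all placed genes and 47.9%, 50.7% and 99.7% among the expressed ones.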
